A study of Saccharomyces cerevisiae with 6 samples.

Results

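Many genes of budding yeast are still written by their systematic name, a code for the chromosome, the arm, the order along it and the strand, because no function had been settled when they were catalogued. The genes described here are the open reading frames that the authors' gene table lists by such a name alone and that averaged at least 100 TPM over all 6 libraries of the study. TPM, the scale of every level given here, counts transcripts relative to all transcripts of a library and corrects for gene length. These genes number 136 of 1639 unnamed rows and of 7125 rows in all. They were selected on the mean TPM over both genotypes, so their high level is not a finding. The libraries came from a kap114 knockout strain (3 libraries) and from a wild-type strain (3 libraries), both S288C. Each strain grew in rich medium with glucose (YPD) to which 1.5 M NaCl had been added. Kap114 is a nuclear import receptor whose cargo includes histones and the TATA-binding protein. The comparison asks how loss of KAP114 changes the transcriptome in high salt, and no culture without added salt was analysed here. Whether replicate libraries stem from separate cultures is not in the labels, and p-values therefore rest on a spread between libraries that may be technical.

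A systematic name does not mean that nothing is known of a gene. In the RefSeq annotation of build R64, 124 of the 136 had a protein with the same start and end, 53 carried a gene symbol by now, and 55 had the product "uncharacterized protein". The remaining 12 had no RefSeq protein. Such genes include small proteins that early annotation passed over, stress-induced proteins with no phenotype under standard growth, reductases found by sequence similarity, and reading frames that lie across a better known gene. Many stress-induced yeast genes carry the stress response element, a short site bound by the transcription factors Msn2 and Msn4, and many also have a TATA box, the site of the TATA-binding protein. The members' proteins had a median of 233.5 residues, with a range of 51 to 1088. Of the 136 regions, 21 were too short for 100 codons with a stop, and 30 had the letter suffix given to reading frames added after the first catalogue.

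The windows upstream of 4 members are shown because 3 of these members have a duplicate that changed in the opposite direction and the other one gave the largest increase. YBR016W and YDL012C are duplicates of each other, and the first was lower and the second higher in the knockout. YHR033W was lower while its duplicate PRO1 was higher, and YLR179C had the largest increase. Each window runs 350 to 51 bases before the start of the region, 5′ to 3′ on the strand of the gene, in build R64 (chrII:269897-270196, plus; chrIV:431568-431867, minus; chrVIII:175198-175497, plus; chrXII:514764-515063, minus). Capitals mark the core of the stress response element (AGGGG or CCCCT) and of the TATA box (TATAAA or TTTATA), each searched on both strands, with no overlap between the 2 motifs.
YBR016W: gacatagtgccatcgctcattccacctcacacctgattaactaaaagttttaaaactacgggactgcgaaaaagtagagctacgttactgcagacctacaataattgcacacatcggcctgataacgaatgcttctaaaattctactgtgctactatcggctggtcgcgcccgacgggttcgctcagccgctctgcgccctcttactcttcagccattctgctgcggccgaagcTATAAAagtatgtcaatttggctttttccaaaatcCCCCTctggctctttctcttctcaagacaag
YDL012C: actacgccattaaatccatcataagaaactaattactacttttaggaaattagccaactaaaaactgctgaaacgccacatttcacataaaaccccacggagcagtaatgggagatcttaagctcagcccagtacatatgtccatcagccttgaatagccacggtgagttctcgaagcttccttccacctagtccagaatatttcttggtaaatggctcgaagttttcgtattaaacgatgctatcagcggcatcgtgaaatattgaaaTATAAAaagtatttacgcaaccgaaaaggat
YHR033W: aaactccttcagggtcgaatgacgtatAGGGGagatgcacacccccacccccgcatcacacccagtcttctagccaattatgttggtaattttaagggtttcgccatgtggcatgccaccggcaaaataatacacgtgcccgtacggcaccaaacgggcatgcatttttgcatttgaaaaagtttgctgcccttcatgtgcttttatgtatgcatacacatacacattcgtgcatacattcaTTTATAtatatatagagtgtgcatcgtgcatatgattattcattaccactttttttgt
YLR179C: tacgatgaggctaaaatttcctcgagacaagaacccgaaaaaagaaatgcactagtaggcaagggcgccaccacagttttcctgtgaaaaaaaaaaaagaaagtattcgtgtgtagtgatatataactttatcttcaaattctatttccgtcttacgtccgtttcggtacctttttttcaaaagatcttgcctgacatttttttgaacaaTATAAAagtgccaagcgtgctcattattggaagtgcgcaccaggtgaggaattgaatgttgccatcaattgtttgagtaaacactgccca
The first base of the stress element core lay 81 bases before the start of YBR016W and 323 bases before that of YHR033W, and no such core was in the windows of YDL012C and YLR179C. A TATA core was in every one of these 4 windows, at 116, 81, 108 and 140 bases before the start in the order printed.

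The libraries held between 33638728 and 38540115 counts. KAP114 (YGL241W, chromosome VII, 45445 to 48459, plus strand) had 0 counts in each knockout library, against 257, 336 and 312 counts in wild-type libraries 1 to 3. RDN37, the precursor of ribosomal RNA, took 12.3%, 9.05% and 11.3% of the counts in knockout libraries 1 to 3, against 3.69%, 4.54% and 3.77% in wild-type libraries 1 to 3, and the part of this in the results below was not tested. The 136 members together held 6.93%, 4.73% and 5.44% of all TPM in the knockout libraries, against 8.17%, 8.03% and 8.20% in the wild-type libraries, so their summed share was lower in every knockout library, and least so in knockout library 1. In RNA from whole cultures, fewer cells in a given state and less RNA per cell cannot be told apart.

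The most abundant member, YBR085C-A (chromosome II, 418907 to 419164, minus strand), encodes a small protein that RefSeq places in the cytoplasm and nucleus. It had 8359, 2115 and 2999.8 TPM in knockout libraries 1 to 3, against 8663, 8557 and 9662 TPM in wild-type libraries 1 to 3. Knockout library 1 lay close to the wild type, whereas libraries 2 and 3 lay far below it, and the log2 fold change of -0.93 ± 0.49 (SE), knockout over wild type, did not pass (adjusted p of 0.128; quasi-likelihood test of edgeR, adjusted by Benjamini-Hochberg over 6080 genes, as for every adjusted p that follows). Without knockout library 1 its log2 fold change was -1.73, with an edgeR adjusted p of 2.47e-05. With all libraries YBR085C-A passed in DESeq2 (adjusted p of 0.0417) and with replicate number in the edgeR model (0.0294). It did not pass under other scalings or in limma. YDR133C had 4379, 2831 and 3480.1 TPM in knockout libraries 1 to 3, against 5366, 4798 and 5194 TPM in wild-type libraries 1 to 3. It was below every wild-type library in each knockout library, but its log2 fold change of -0.45 ± 0.22 (SE) did not pass (edgeR adjusted p of 0.107). YDR133C passed in DESeq2 (adjusted p of 0.0144) and when scaled by library totals only (edgeR adjusted p of 0.0421), but not in limma. It has no RefSeq protein, and 67.6% of its region is shared with YDR134C on the same strand, which had 0 counts in every library. YDR134C is CCW22 in RefSeq, with a protein of 136 residues. The way reads in the shared bases were assigned is not described in the sources used here. Whether the reads counted for YDR133C come from CCW22 was not tested.

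YNL208W, whose product may bind ribosomes, had 3278, 1855 and 2063 TPM in knockout libraries 1 to 3, against 5286, 5187 and 5269 TPM in wild-type libraries 1 to 3. The groups did not overlap and it fell by 2.09-fold (edgeR adjusted p of 0.0111), a call that ended without knockout library 3 (0.0587). YNL195C (chromosome XIV, 271523 to 272308, minus strand), the duplicate of the Hub1 target gene HBT1, had 1938, 554 and 815 TPM in knockout libraries 1 to 3, against 4322, 3724 and 3919 TPM in wild-type libraries 1 to 3. It fell by 3.46-fold, at -1.79 ± 0.46 (SE) on the log2 scale (edgeR adjusted p of 0.0115). YJL133C-A, now DPI8, also fell, to 1518 ± 441 TPM in the knockout and 3162 ± 457 TPM in the wild type (SD, n = 3 each). 

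In the other direction, YDR524C-B (chromosome IV, 1489598 to 1489798, minus strand), a protein of 66 residues, had 2643, 3708 and 4036 TPM in knockout libraries 1 to 3, against 1774, 1903 and 1945 TPM in wild-type libraries 1 to 3. All 3 knockout libraries were above all 3 wild-type libraries, and the rise was 1.94-fold (log2 0.96 ± 0.20 (SE), edgeR adjusted p of 0.00501). YNR034W-A, now EGO4, a duplicate of a gene for a subunit of the EGO complex on the vacuole, rose 2.09-fold, with 2286, 1715 and 2843 TPM in knockout libraries 1 to 3, against 937, 1318 and 1199 TPM in wild-type libraries 1 to 3. YMR122W-A, now NCW1, for a cell wall protein, rose 1.63-fold to 2556 ± 98.7 TPM in the knockout and 1653 ± 261 TPM in the wild type (SD, n = 3 each).

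The other 2 of the 10 most abundant did not pass and spread widely in the knockout. YHR138C, which resembles the proteinase B inhibitor Pbi2, had 2379, 683 and 1037 TPM in knockout libraries 1 to 3, against 2635, 3008 and 1961 TPM in wild-type libraries 1 to 3. YNL190W, for a hydrophilin of the cell wall needed to survive drying, had 1968, 568 and 622 TPM in knockout libraries 1 to 3, against 2368, 2460.3 and 2422 TPM in wild-type libraries 1 to 3. In both, knockout library 1 lay far above knockout libraries 2 and 3, which were below every wild-type library. Without knockout library 1 both passed, at log2 fold changes of -1.48 and -1.94 (edgeR adjusted p of 0.000248 and 2.61e-06). With all libraries YNL190W passed when scaled by library totals only (edgeR adjusted p of 0.0450), in DESeq2 (adjusted p of 0.0115) and in limma (0.0285 and 0.0288 at pseudocounts of 1 and 0.1). With replicate number in the edgeR model YHR138C and YNL190W both passed (edgeR adjusted p of 0.0423 and 0.0139). YHR138C passed under no other setting with all libraries.

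**Figure D1:**
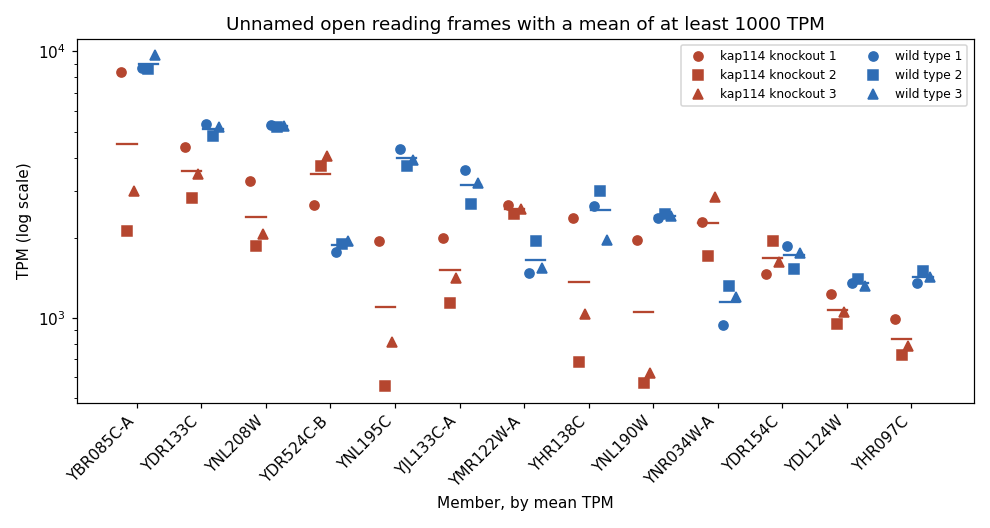
TPM on a log scale in each of 3 knockout (red) and 3 wild-type (blue) libraries for the 13 members with a mean of at least 1000 TPM, in order of the mean. Short lines are group means, and the knockout points of YBR085C-A spread between 2115 and 8359 TPM while its wild-type points lie between 8557 and 9662 TPM.

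All 136 members passed the filter on low counts. Of these, 24 were called higher and 62 lower in the knockout, where the background over the 6080 tested genes was 34.3% called higher and 30.0% called lower. As shares, 17.6% of the members were called higher and 45.6% lower. A change of at least 2-fold was called for 6 members upward and 27 downward, against 17.1% and 7.63% of all tested genes (24.8% in either direction). Of the members' 2-fold calls, 1 upward and 10 downward came from members whose mean reached 100 TPM in 1 genotype only. Those members had to differ to be included. The median log2 fold change was -0.43 over the members, with quartiles of -0.94 and 0.13, and 0.01 over all tested genes. Named genes of at least 100 TPM, 1414 rows, had a median of -0.24, with 30.3% called higher and 41.1% called lower. No test of the difference between these sets was made.

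The groups did not overlap for 30 members higher and 74 lower in the knockout, where the background was 37.9% and 35.9%. Among the 24 called higher, only YPR170W-B had overlapping groups, and among the 62 called lower, none had. Of the 86 calls, 45 held in each of the 6 fits that left out 1 library, 17 of them higher and 28 lower. The count of lower calls depended on single libraries: it was 87 without knockout library 1 (with 28 higher, where the background of that fit was 38.9% higher and 37.0% lower), 29 without knockout library 3, 34 without wild-type library 1 and 40 without wild-type library 3. Over all tested genes, 4166 had an edgeR p under 0.05 with all libraries and 4721 without knockout library 1. This number was 3506 without knockout library 3, 3567 without wild-type library 1 and 3715 without wild-type library 3. Scaled by library totals only, which moved the median of all tested genes to -0.13, 19 members were called higher and 79 lower, against a background of 29.0% and 37.8%.

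**Figure D2:**
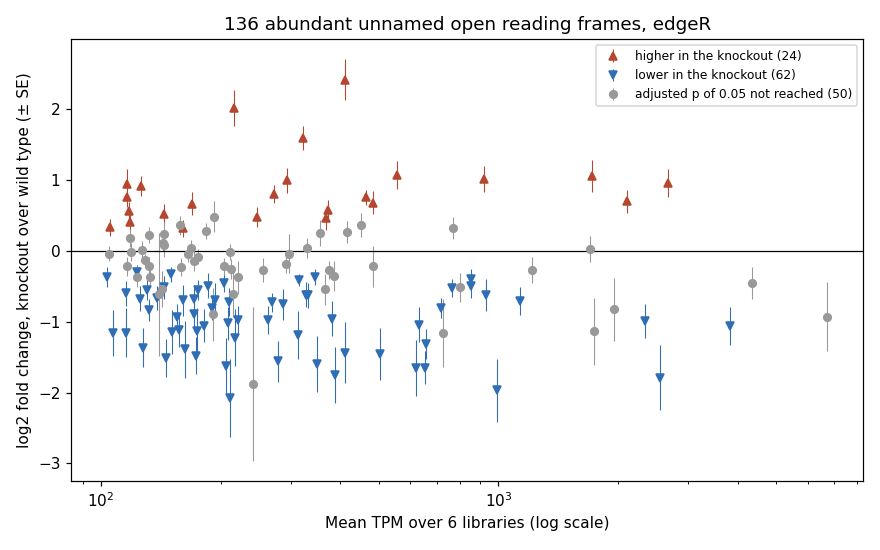
Log2 fold change of knockout over wild type (edgeR, bars ± SE) against mean TPM over 6 libraries on a log scale for the 136 members. Red triangles are the 24 called higher, blue triangles the 62 called lower and grey points the 50 with an adjusted p above 0.05; more members lie below 0 than above it across the range of levels.

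The largest increase was that of YLR179C (chromosome XII, 514108 to 514713, minus strand), for a protein similar to Tfs1, the inhibitor of carboxypeptidase Y. It had 430.3, 881 and 746 TPM in knockout libraries 1 to 3, against 104, 156 and 146 TPM in wild-type libraries 1 to 3. The groups were far apart, and the rise was 5.34-fold (log2 2.42 ± 0.29 (SE), edgeR adjusted p of 0.00114). TFS1 itself, which lies 286 bases downstream on the same strand, had a log2 fold change of -0.46 (edgeR adjusted p of 0.0579; 0.00640 in DESeq2).

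YOR248W and YMR173W-A came next, with log2 fold changes of 2.02 ± 0.25 (SE) and 1.60 ± 0.17 (SE), and both lie mostly across another gene on the same strand, as described below. The mean of YOR248W reached 100 TPM in the knockout only, so it had to differ to be included. YLR257W, a protein of unknown function, had 579, 873 and 764 TPM in knockout libraries 1 to 3, against 330.3, 394 and 387 TPM in wild-type libraries 1 to 3, which is 2.10-fold higher. YNL134C, for an NADH-dependent aldehyde reductase, rose 1.99-fold to 385 ± 76.8 TPM in the knockout and 203 ± 13.2 TPM in the wild type (SD, n = 3 each). With YNR034W-A, YFR052C-A and YDR524C-B these make up the 8 largest increases, whose edgeR adjusted p lay between 0.00111 and 0.00595 and which each held in every fit that left out 1 library.

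The largest decrease was that of YKL107W (chromosome XI, 236141 to 237070, plus strand), for another NADH-dependent aldehyde reductase, which RefSeq places in the endoplasmic reticulum. It had 154, 29.4 and 50.9 TPM in knockout libraries 1 to 3, against 373, 314 and 348 TPM in wild-type libraries 1 to 3. All knockout libraries were below all wild-type libraries, with library 1 the nearest. The fall was 4.22-fold (log2 -2.08 ± 0.55 (SE), edgeR adjusted p of 0.0138, and 0.0513 without knockout library 3). The mean of YKL107W reached 100 TPM in the wild type only, so it had to differ to be included. YHR033W (chromosome VIII, 175548 to 176819, plus strand), a putative glutamate 5-kinase, had 648, 178 and 341 TPM in knockout libraries 1 to 3, against 1809, 1586 and 1391 TPM in wild-type libraries 1 to 3. Its fall was 3.92-fold (edgeR adjusted p of 0.00738), and the groups were again apart.

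YER121W, of unknown function, had 293, 97.9 and 124 TPM in knockout libraries 1 to 3, against 582, 517 and 716 TPM in wild-type libraries 1 to 3, a 3.37-fold fall. YDR461C-A, now CMI8, for a cytosolic protein of 80 residues, had 413, 216 and 286 TPM in knockout libraries 1 to 3, against 1023, 921 and 1065 TPM in wild-type libraries 1 to 3. All 3 knockout libraries were far below the wild type (log2 -1.65 ± 0.23 (SE), edgeR adjusted p of 0.00129). YLR312C, now ATG39, for the receptor that delivers parts of the nucleus to autophagy, fell 3.07-fold to 98.0 ± 59.9 TPM in the knockout and 315 ± 17.1 TPM in the wild type (SD, n = 3 each). ATG39 too reached a mean of 100 TPM in the wild type only. YMR206W, of unknown function, fell 3.02-fold to 168 ± 97.3 TPM in the knockout and 532 ± 50.3 TPM in the wild type (SD, n = 3 each). YNL195C and YDR034W-B complete the 8 largest decreases. In each of the 8 decreases knockout library 1 was the highest and knockout library 2 the lowest of the knockout libraries.

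The members fall into groups by words in their RefSeq descriptions, which were picked after the members were known, and a member can be in more than one group. Over all 136 members 45.6% fell and 17.6% rose. For group counts in fits that left out 1 library, no background over all tested genes is given. Of 9 members tied to protein degradation or autophagy, 8 fell and 0 rose, where the background over all tested genes was 30.0% lower and 34.3% higher. Among them, YJL144W, now ROQ1, which redirects the ubiquitin ligase Ubr1 under stress, had 481, 485 and 546 TPM in knockout libraries 1 to 3, against 871, 843 and 1069.7 TPM in wild-type libraries 1 to 3. The 3 knockout libraries were close together and below the wild type (1.75-fold lower, edgeR adjusted p of 0.00255). YLR312C (ATG39) is described above, and YIL156W-B, now ATG44, for the mitofissin that cuts mitochondria for mitophagy, fell by 1.33-fold (edgeR adjusted p of 0.00453). YLR149C (GID11) and YGR066C (GID10), for substrate receptors of the GID ubiquitin ligase, had log2 fold changes of -1.23 ± 0.40 (SE) and -0.55 ± 0.14 (SE). The F-box proteins YDR306C (PFU1) and YLR224W (UCC1) and the autophagy receptor YBR285W (HAB1) were the other 3 that fell, and only ROQ1, ATG44 and ATG39 held in every fit that left out 1 library. The number of members of the group that fell was 3 without wild-type library 1, 5 without wild-type library 2 and 4 without wild-type library 3 or knockout library 3. YMR315W, an NADPH-dependent oxidoreductase described as a negative regulator of autophagy, was the ninth and had a log2 fold change of 0.04 ± 0.14 (SE) (edgeR adjusted p of 0.820), a sign that turned when scaled by library totals only and in limma.

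Of 15 members whose description names the cell wall, the plasma membrane, eisosomes or the cell periphery, 9 fell and 2 rose, against the same background of 30.0% and 34.3%. The shares over all members were 45.6% and 17.6%. YNL194C, for a membrane protein of the Sur7 type, fell to 712 ± 193 TPM in the knockout and 1153 ± 48.8 TPM in the wild type (SD, n = 3 each), a call that survived the loss of knockout library 1 but of no other library (edgeR adjusted p from 0.0840 to 0.135). YGR130C, an eisosome component, fell 1.94-fold, with an adjusted p of 0.0119 and of 0.0512 without knockout library 3. YLR194C, now NCW2, for a cell wall protein, rose 1.60-fold to 584 ± 70.9 TPM in the knockout and 383 ± 54.3 TPM in the wild type (SD, n = 3 each), as did NCW1 above, which the words used here placed with the endoplasmic reticulum. YDR115W (MRX14), for a mitochondrial ribosomal protein, and GID11 are in this group only because their descriptions mention the plasma membrane. The number that fell was 5 without any one of the wild-type libraries, 4 without knockout library 3 and as many as 12 with knockout library 1 left out.

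Of 24 mitochondrial members, 11 fell (45.8%) and 3 rose (12.5%), where the background was 30.0% lower and 34.3% higher. The share that fell was near the 45.6% over all 136 members, of which 17.6% rose. The number of mitochondrial members that fell was 8 without wild-type library 1 or 3 and 7 without knockout library 3. It was as many as 17 with knockout library 1 left out. YDR381C-A, now COI1, a mitochondrial protein that binds respiratory complexes, had 558, 559.8 and 593 TPM in knockout libraries 1 to 3, against 328, 384 and 354 TPM in wild-type libraries 1 to 3. Each group was tight and the rise was 1.69-fold (log2 0.76 ± 0.11 (SE), edgeR adjusted p of 0.00130). YDL157C (DMO2) rose 1.70-fold, and YDL086W rose 1.25-fold, a call that held only in the fit without knockout library 1 among the 6 and ended when scaled by library totals only (edgeR adjusted p of 0.208). The mean of DMO2 reached 100 TPM in the knockout only, so it had to differ to be included. Of those that fell, YIL077C (RCI37), MRX14 and YNL115C had log2 fold changes of -0.97 ± 0.20 (SE), -0.81 ± 0.17 (SE) and -1.37 ± 0.28 (SE). YPR010C-A (MRA1), YOR020W-A (MCO10) and YAL044W-A (BOL1) did not pass, at -0.22, -0.27 and 0.05.

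Of 12 members tied to the endoplasmic reticulum, 6 fell (50%) and 4 rose (33.3%), where the background was 30.0% lower and 34.3% higher. The share that fell was near that of all 136 members (45.6%). The share that rose was near the background and above that of all members (17.6%). Leaving out 1 library in turn gave 4 to 7 that fell and 3 to 5 that rose. YDR186C (SND1), which directs proteins to the endoplasmic reticulum independently of the signal recognition particle, fell to 104 ± 23.4 TPM in the knockout and 208 ± 12.8 TPM in the wild type (SD, n = 3 each), and YDR476C fell 1.78-fold. YPR063C rose 1.75-fold to 340.1 ± 43.2 TPM in the knockout and 205 ± 11.6 TPM in the wild type (SD, n = 3 each), and YDR056C (EMC10), a subunit of the membrane protein insertase, did not pass at 0.28 ± 0.12 (SE).

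Enzymes and predicted enzymes numbered 24, of which 8 fell (33.3%) and 6 rose (25%), near the background of 30.0% lower and 34.3% higher. Among all 136 members 45.6% fell, a higher share, and 17.6% rose. YDR391C (IAT4), for an acetyltransferase of indolamines, rose 1.88-fold to 162 ± 21.0 TPM in the knockout and 90.5 ± 11.7 TPM in the wild type (SD, n = 3 each), and the glucose-6-phosphate epimerase YMR099C rose 1.48-fold. IAT4 and YMR099C reached a mean of 100 TPM in the knockout only, and YKL107W, described above, in the wild type only. These members had to differ to be included. The S-formylglutathione hydrolase YJL068C fell 1.65-fold, the putative peptide hydrolase YMR114C 2.74-fold and the fructose-bisphosphate 2-phosphatase homolog YLR345W 2.27-fold. NNR1 (YNL200C) and NNR2 (YKL151C), the epimerase and the dehydratase that repair damaged NADH, had log2 fold changes of -0.62 ± 0.18 (SE) and -0.51 ± 0.21 (SE), of which the first passed (edgeR adjusted p of 0.0176) and the second did not (0.0587). The calls of YLR345W and NNR1 ended without knockout library 3 (0.0685 and 0.0548) or wild-type library 1 (0.0589 and 0.0629), and that of NNR1 also without wild-type library 3 (0.0523; edgeR adjusted p). The number of enzymes that fell was 5 without wild-type library 1, 4 without knockout library 3 and as many as 12 with knockout library 1 left out, and the number that rose was 3 without knockout library 3.

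A list of putative oxidoreductases, enzymes that move electrons between a substrate and a nicotinamide cofactor, was chosen with earlier results of these data known. Of the 5 genes of the list among the 136 members, 2 rose and 0 fell, where the background was 34.3% higher and 30.0% lower. These were YNL134C and YML131W, an enzyme of the medium-chain reductase family, which rose 1.49-fold to 436 ± 34.4 TPM in the knockout and 309 ± 21.5 TPM in the wild type (SD, n = 3 each), a call that ended without wild-type library 1 (edgeR adjusted p of 0.0540) and without knockout library 3 (0.0530). The aldo-keto reductases YDL124W and YJR096W and the reductase-like YMR090W did not pass, at -0.26 ± 0.18 (SE), -0.36 ± 0.21 (SE) and 0.33 ± 0.15 (SE). Without knockout library 1, 2 of the 5 were called lower, so the list did not keep 1 direction. The list does not hold every such enzyme among the members. It leaves out the aldehyde reductase YKL107W, the largest decrease (log2 -2.08, edgeR adjusted p of 0.0138), and the oxidoreductase YMR315W, which did not pass.

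Cysteine-rich transmembrane (CYSTM) proteins are small palmitoylated proteins of the cell surface, and 4 genes of the family were members. YBR016W, now CPP1 (chromosome II, 270247 to 270633, plus strand), had 459.9, 282 and 351 TPM in knockout libraries 1 to 3, against 1099, 941 and 808 TPM in wild-type libraries 1 to 3. YDL012C (chromosome IV, 431108 to 431517, minus strand), its duplicate, had 159, 229.8 and 220.3 TPM in knockout libraries 1 to 3, against 133, 150.1 and 121 TPM in wild-type libraries 1 to 3. In both, the groups were apart, in opposite directions: CPP1 fell 2.49-fold and YDL012C rose 1.59-fold (edgeR adjusted p of 0.00218 and 0.00998), and both calls held in every fit that left out 1 library. YDR034W-B, now CPP3, had 490.2, 157 and 216 TPM in knockout libraries 1 to 3, against 851, 872 and 1132 TPM in wild-type libraries 1 to 3, a 3.15-fold fall. Its duplicate YBR056W-A, now MNC1, had 238, 183 and 139.6 TPM in knockout libraries 1 to 3, against 179.9, 296 and 288 TPM in wild-type libraries 1 to 3, with overlapping groups and no call (log2 -0.37 ± 0.24 (SE), edgeR adjusted p of 0.196).

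RefSeq names a duplicate from the whole-genome duplication for other members too. YHR033W stood at 992 TPM on average and its duplicate PRO1, for the glutamate 5-kinase of proline synthesis, at 21.3 TPM. PRO1 had 22.0, 41.0 and 36.8 TPM in knockout libraries 1 to 3, against 7.47, 11.4 and 9.26 TPM in wild-type libraries 1 to 3. The pair thus differed in direction, since YHR033W had a log2 fold change of -1.97 and PRO1 of 1.91 (edgeR adjusted p of 0.00738 and 0.00118). The same held for YPR172W at -1.12 with YLR456W at 1.97, and for YKL091C at -0.45 with the phosphatidylinositol transfer gene SEC14 at 1.22. It also held for YKR018C at -0.72 with IML2 at 0.38. YLR456W was low, at 3.98 TPM on average over all libraries and 1.68 TPM in the wild type. The calls of YKL091C and YKR018C ended without some libraries (edgeR adjusted p up to 0.0734 and 0.0644), as did that of IML2 without knockout library 3 (0.0712), wild-type library 1 (0.0688) or wild-type library 3 (0.0563) and when scaled by library totals only (0.0924).

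Other pairs moved one way. YNL195C (-1.79, log2) and HBT1 (-0.99) both fell, as did YNL194C (-0.63) and FMP45 (-0.91), YMR206W (-1.60) and YNR014W (-1.13), and YJR115W (-1.48) and ECM13 (-1.04). The calls of HBT1, FMP45 and YNL194C held in only 1 of the 6 fits that left out 1 library, that without knockout library 1 (edgeR adjusted p in the others from 0.0752 to 0.137 for HBT1, from 0.0798 to 0.139 for FMP45 and from 0.0840 to 0.135 for YNL194C). Of the pairs made of 2 members, YMR181C did not pass while its duplicate YPL229W fell (-0.54 and -1.39, log2), and YKR075C and YOR062C did not pass, at 0.27 and -0.18. YOL036W fell and its duplicate YIR016W did not pass (-0.67 and -0.37). Some other pairs held a call for only 1 gene. Among these, YOR019W (-1.15) fell while JIP4 stood at 0.32, PSP1 (-1.08) while YLR177W stood at 0.36, and FUN19 (-1.08) while YOR338W stood at -0.14. The calls of YOL036W, YOR019W, PSP1 and FUN19 ended without knockout library 3 (edgeR adjusted p of 0.0551, 0.0733, 0.147 and 0.0713). Not every pair is given here. The call of YPL229W ended without knockout library 3 or wild-type library 1 (edgeR adjusted p of 0.0659 and 0.0601). How the authors' counting divides reads between similar copies is not described in the sources used here.

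Knockout library 1 stood nearer to the wild type than the other knockout libraries over most members and over most tested genes. The median log2 difference of the members from the wild-type mean (log2 CPM) was -0.18 for knockout library 1, -0.66 for library 2 and -0.43 for the third, and 0.01 in each over all tested genes. Knockout library 1 was the nearest of the 3 to the wild-type mean for 106 members (77.9%), near the background of 75.4% over all tested genes, and the highest of the 3 for 94 (69.1%), where the background was 43.7%. Knockout libraries 2 and 3 were both below every wild-type library for 89 members, where the background was 41.8%, and library 1 was below as well for 74 of these. Both were above every wild-type library for 33 members, where the background was 43.3%, and library 1 was above too for 30.

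**Figure D3:**
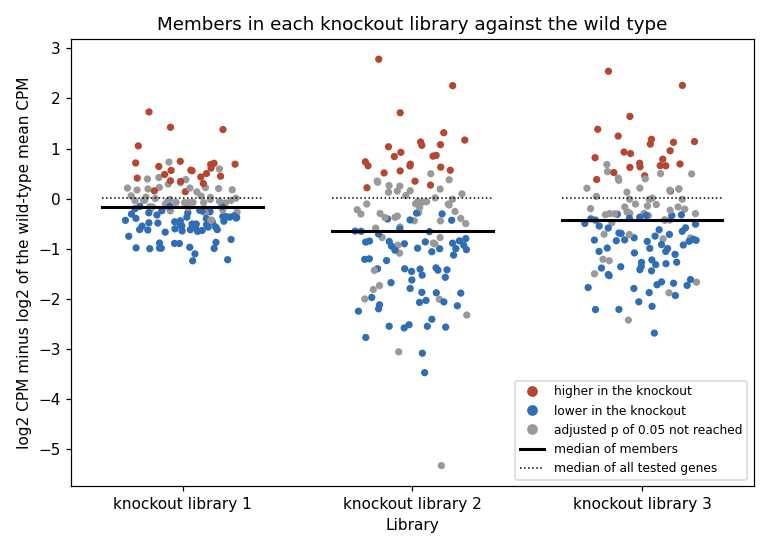
Log2 difference of each member's CPM in 1 knockout library from the mean of the 3 wild-type libraries, a point per member, by knockout library. Colours are the calls over all libraries, thick lines the medians of the members (-0.18, -0.66 and -0.43) and dotted lines the median of all tested genes.

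The widest spread was that of YMR175W-A (chromosome XIII, 611314 to 611508, plus strand), a protein of 64 residues of unknown function. It had 271, 8.97 and 17.7 TPM in knockout libraries 1 to 3, against 335, 299.8 and 509.9 TPM in wild-type libraries 1 to 3. Knockout library 1 was within reach of the wild type and libraries 2 and 3 were far below it, and the log2 fold change of -1.88 ± 1.08 (SE) did not pass (edgeR adjusted p of 0.163). Without knockout library 1 it was -4.74, with an edgeR adjusted p of 4.30e-06. Its region starts 58 bases downstream of SIP18 on the same strand, a hydrophilin gene that had 19369, 1300.1 and 3553 TPM in knockout libraries 1 to 3, against 35773, 33892 and 36876 TPM in wild-type libraries 1 to 3. The knockout libraries thus stood in the same order at both, 1 above 3 above 2, and whether the reads of YMR175W-A come from the SIP18 transcript was not tested.

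YCL048W-A, a duplicate of YDR524C-B, had 273, 19.5 and 30.3 TPM in knockout libraries 1 to 3, against 149, 179.5 and 188 TPM in wild-type libraries 1 to 3. Here knockout library 1 was above every wild-type library and libraries 2 and 3 were below, and its log2 fold change of -0.61 ± 0.87 (SE) did not pass (edgeR adjusted p of 0.555). YDR524C-B was above the wild type in each of the 3 knockout libraries, as given above.

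By the regions in the gene table, 11 members overlapped a feature on the opposite strand and 15 a feature on the same strand, and 111 overlapped nothing. The libraries were stranded per the labels' protocols. Among the opposite-strand partners, YMR294W-A lies across 272 bases of YMR295C (now GSR1, a regulator of glucan synthesis) and its mean TPM was 0.059% of that of GSR1. YKR075W-A lies inside YKR075C and stood at 0.101% of it, and YBR056C-B lies inside YBR056W-A (MNC1) and stood at 0.267% of it. YAL045C, across 279 bases of YAL044W-A (BOL1), stood at 0.290%, YDL086C-A, inside YDL086W, at 0.925%, and YDR114C, across 52 bases of YDR115W (MRX14), at 0.978%. Beside YPR170W-B, YPR170C stood at 0.166%, and the highest share among the rest was 2.19%, for YOL037C across YOL036W. The feature on the other strand was thus far below each of these members. GSR1 fell 1.41-fold, and of the 6 fits that left out 1 library, its call held only in that without knockout library 1 (edgeR adjusted p from 0.0842 to 0.143 in the others).

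YLR154W-E is the exception. It lies within RDN37-1 on the opposite strand over its whole length of 204 bases, and RDN37-1 averaged 6796 TPM. Its region (chrXII:455433-455636, plus strand, build R64) is printed because 139 of its bases, in capitals, are the complement of 5.8S ribosomal RNA (RDN58-1).
YLR154W-E: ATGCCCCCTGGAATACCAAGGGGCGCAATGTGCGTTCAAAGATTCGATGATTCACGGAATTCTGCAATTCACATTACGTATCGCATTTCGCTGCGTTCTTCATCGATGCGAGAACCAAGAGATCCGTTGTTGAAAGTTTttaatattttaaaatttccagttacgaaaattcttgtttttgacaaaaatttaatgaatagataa
YLR154W-E had 343, 294 and 216 TPM in knockout libraries 1 to 3, against 191, 325 and 410.4 TPM in wild-type libraries 1 to 3, with overlapping groups (log2 -0.04 ± 0.27 (SE), edgeR adjusted p of 0.904), whereas RDN37-1 rose by 1.59 ± 0.30 (SE) on the log2 scale. RefSeq has no protein for it.

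On the same strand, reads in the shared bases can belong to either gene, and the authors' way of assigning them is not described in the sources used here. YMR173W-A shares 1085 bases with DDR48, a stress gene. YMR173W-A had 427, 516 and 490.4 TPM in knockout libraries 1 to 3, against 159.9, 194 and 144 TPM in wild-type libraries 1 to 3, and DDR48 had 345, 363 and 486 TPM in knockout libraries 1 to 3, against 111, 142 and 91.6 TPM in wild-type libraries 1 to 3. Both rose, by 1.60 ± 0.17 (SE) and 1.86 ± 0.22 (SE) on the log2 scale. YOR248W shares 296 of its bases with SRL1, for a cell wall mannoprotein. YOR248W had 223, 403 and 405 TPM in knockout libraries 1 to 3, against 80.9, 107 and 79.9 TPM in wild-type libraries 1 to 3, and SRL1 had 307, 543 and 540.5 TPM in knockout libraries 1 to 3, against 139.9, 163 and 151 TPM in wild-type libraries 1 to 3, so both were higher in each knockout library, by 2.02 and 1.69 on the log2 scale.

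YFR052C-A shares 143 bases with HXK1, for hexokinase, and the pair had log2 fold changes of 1.01 ± 0.18 (SE) and 1.09 ± 0.23 (SE). YGR137W and LSB1, for a regulator of actin assembly, both rose (0.95 and 1.27). The mean of YGR137W reached 100 TPM in the knockout only, so it had to differ to be included. YLL020C and the protein kinase gene KNS1 both fell (-1.06 and -1.26), as did YBR090C and the chromatin protein gene NHP6B (-1.16 and -1.33), though the call of YBR090C ended without knockout library 3 or wild-type library 1 (edgeR adjusted p of 0.0600 and 0.0587) and that of KNS1 without knockout library 3 (0.0542). YDR154C shares 242 bases with CPR1, for cyclophilin A, and neither passed (0.03 and -0.02); that of YDR154C was below 0 when scaled by library totals only. YPR170W-B rose by 0.46 on the log2 scale and both features inside it on the same strand by more, YPR169W-A by 1.15 and YPR170W-A by 1.33. The call of YPR170W-B ended without knockout library 3 (edgeR adjusted p of 0.133), wild-type library 1 (0.127) or wild-type library 3 (0.134) and when scaled by library totals only (0.121). YIL047C-A also stood apart from its partner SYG1, with which it shares 353 bases. YIL047C-A had 127, 132 and 128 TPM in knockout libraries 1 to 3, against 172, 153 and 188 TPM in wild-type libraries 1 to 3, and SYG1 had 125, 53.7 and 75.4 TPM in knockout libraries 1 to 3, against 237, 202 and 207 TPM in wild-type libraries 1 to 3. SYG1 fell 2.43-fold and YIL047C-A 1.26-fold, the second with an edgeR adjusted p of 0.0255 that ended without knockout library 3 (0.0838), wild-type library 1 (0.0890) or wild-type library 3 (0.0991). YDR133C shares 227 bases with YDR134C (CCW22), which was listed at 0 counts in every library.

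The members YBR126W-A (now MEO1) and YBR126W-B share 130 bases in a different reading frame. The region of YBR126W-B (chrII:490927-491070, plus strand, build R64) is printed with the shared bases in capitals, since 90.3% of it lies in MEO1.
YBR126W-B: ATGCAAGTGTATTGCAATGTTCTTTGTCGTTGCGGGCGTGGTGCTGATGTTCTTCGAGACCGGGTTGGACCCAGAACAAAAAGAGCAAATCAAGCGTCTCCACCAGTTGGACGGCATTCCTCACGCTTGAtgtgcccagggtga
YBR126W-B had 679, 709 and 758 TPM in knockout libraries 1 to 3, against 1156, 898 and 916 TPM in wild-type libraries 1 to 3, and MEO1 had 277, 306 and 299 TPM in knockout libraries 1 to 3, against 436, 389.6 and 369 TPM in wild-type libraries 1 to 3. Both were lower in each knockout library than in any wild-type library, by -0.40 ± 0.14 (SE) and -0.37 ± 0.11 (SE) on the log2 scale (edgeR adjusted p of 0.0397 and 0.0211), and neither call held without wild-type library 1 (0.135 and 0.0821) or knockout library 3 (0.0758 and 0.0655). These are not separate observations.

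Of the 12 members without a RefSeq protein, 11 overlap another feature on the same strand, and the other one is YLR154W-E. In this group 4 rose (33.3%) and 3 fell (25%), near the background of 34.3% and 30.0%. Of the 4 that rose, YOR248W and YGR137W reached a mean of 100 TPM in the knockout only, so they had to differ to be included. Among all 136 members 17.6% rose and 45.6% fell. The number of this group that fell was 1 without wild-type library 1, wild-type library 3 or knockout library 3.

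**Figure D4:**
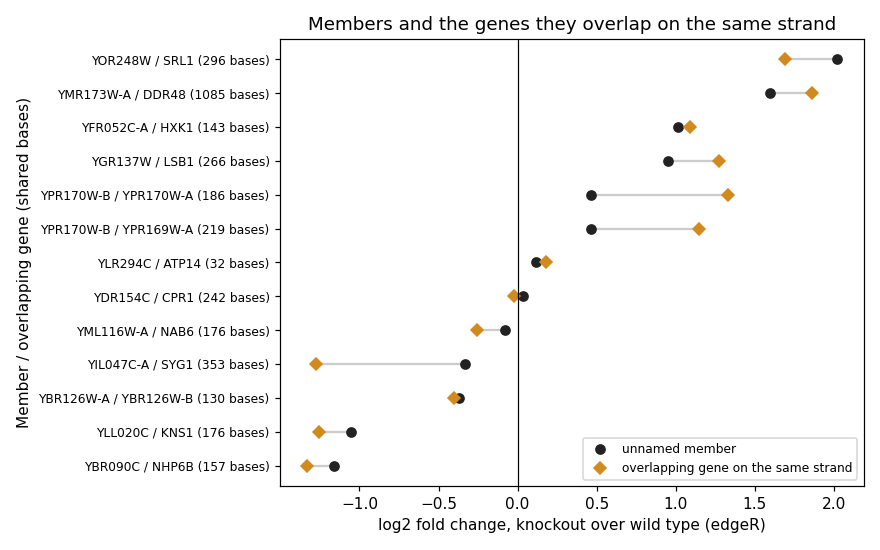
Log2 fold change (edgeR, knockout over wild type) of members (black) and of the feature each overlaps on the same strand (orange), with the number of shared bases. YDR133C, whose partner was not tested, and YIL156W-B, whose partner averaged 1.39 TPM, are left out. The pair of MEO1 and YBR126W-B is drawn once. YIL047C-A lies apart from SYG1 (-0.33 and -1.28), and YPR170W-B from YPR169W-A and YPR170W-A (0.46, 1.15 and 1.33).

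The core of the stress response element, as spelled out above, was in the upstream window of 40 of the 62 members called lower (64.5%), 22 of the 50 not called (44.0%) and 5 of the 24 called higher (20.8%). Over all 136 members it was 67 (49.3%), and over windows of the same length before 6001 RefSeq protein-coding genes it was 1375 (22.9%). Without knockout library 1 the core was found for 51 of 87 members called lower (58.6%) and 7 of 28 called higher (25%), and without knockout library 3 for 16 of 29 (55.2%) and 4 of 18 (22.2%). Among the 8 largest decreases it was in the windows of YKL107W, YHR033W, YER121W, CPP3 and ATG39, and not in those of YNL195C, CMI8 and YMR206W. Among the 8 largest increases it was in those of EGO4 and YNL134C. Windows of members that overlap another gene, such as YOR248W in SRL1, lie partly inside that gene. The windows of MEO1 and YBR126W-B, both called lower and both with a match, overlap each other. Shares over all genes called lower or higher were not computed. The TATA core was in 50% of the members' windows, including 50% of those called lower and 50% of those called higher, and in 47.5% of all protein-coding ones. A match in a window is a description and does not show a bound site, and no test was made.

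**Figure D5:**
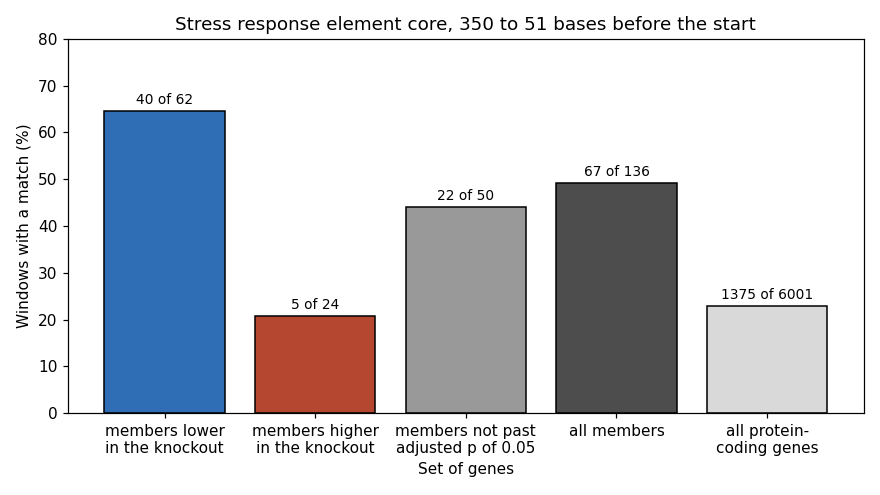
Share of upstream windows (350 to 51 bases before the start) that hold the core of the stress response element on either strand. Bars start at 0 and carry their counts; 40 of 62 members called lower had a match, against 5 of 24 called higher and 1375 of 6001 protein-coding genes.

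The threshold of 100 TPM sets which genes are described. Just inside it were YGR250C (now RIE1) at a mean of 105 TPM, YKL063C at 105 TPM and YOR289W at 104 TPM, and just outside it YOR131C at 99.9 TPM, YHR112C at 97.8 TPM and YJR112W-A at 97.7 TPM. The mean reached 100 TPM in both genotypes for 115 members, of which 18 were called higher and 48 lower, 5 and 17 of them by at least 2-fold. For 6 members it was reached in the knockout only and for 15 in the wild type only, so these members had to differ to be included. Those of the knockout only were YOR248W, IAT4, YMR099C, DMO2, YGR137W and RIE1. Those of the wild type only include YKL107W, ATG39 and YMR175W-A and the transporter-like YBR241C (VVS1), which had 105, 49.5 and 64.2 TPM in knockout libraries 1 to 3, against 242, 202 and 210.1 TPM in wild-type libraries 1 to 3 and fell 2.85-fold (edgeR adjusted p of 0.00307).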

How the data were processed

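Total RNA was isolated with a column kit and poly(A)-selected into stranded libraries, per the labels' protocols, in 3 libraries of each genotype. Groups and library numbers come from the sample titles, where knockout libraries 1 to 3 carry 3 to 5 in their library names. TAF1 also appears in the library names, and no source used here explains it.

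The authors deposited whole-number counts of reads per gene, without normalization, per the file headers. They also deposited TPM, which scales counts per length to the same sum in each library, per the file headers. The submitters' processing notes name FastQC and build R64; neither aligner nor counter is named in the sources used here. The 6 RPKM columns and the authors' own comparison were not used.

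Members are rows with a systematic name and a mean of at least 100 TPM. The members, the gene lists and the keyword groups were chosen with earlier results of these data known. The genes named are KAP114, the 10 most abundant members, the 8 largest increases and 8 largest decreases among calls without overlap between groups, up to 8 members overlapping a feature on each strand, the 3 nearest the threshold on each side, up to 4 that reach it in 1 genotype only, and both lists. Other genes were named after their values were seen.

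Counts were tested with edgeR 4.0.16 in R 4.3.3 (TMM scaling, filterByExpr, robust quasi-likelihood fit) over 6080 genes, with Benjamini-Hochberg adjustment and a threshold of 0.05. SEs come from the F statistic, and CPM were scaled by TMM. The test was run on simulated data first. Alternatives were other scalings, DESeq2 1.42.0, limma 3.58.1 on log2 TPM with a pseudocount of 1 or 0.1, a replicate block, no filter, leaving out each library, and other member rules. RefSeq build R64 matched 6190 of the 7125 rows, of which 99.7% had the same start and end, and gave symbols, descriptions and sequences. Each library held at least 33638728 counts.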

Additional observations from a re-analysis of the deposited data

How the results depend on the processing

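With 3 libraries a genotype, single libraries moved the counts of calls more than scaling or test did. Leaving out 1 library in turn gave 18 to 28 members higher, 29 to 87 lower and 18 to 54 with at least a 2-fold change, against 24, 62 and 33 with all libraries; the extremes for lower calls were without knockout library 3 and without knockout library 1. Over all tested genes, those with an edgeR p under 0.05 numbered 3506 to 4721 in the same fits, against 4166 with all libraries. Members with a mean of at least 200 TPM gave 15 higher and 35 lower, fewer because fewer members enter. Under RLE scaling, library totals, DESeq2, limma and no filter, the counts ran from 19 to 27 higher, 61 to 79 lower and 33 to 40 of at least 2-fold. Of the 50 members that did not pass, 15 passed in DESeq2, 17 with library totals and 9 in limma at either pseudocount. The log2 fold change of KAP114 was -11.18 and ran from -11.26 to -1.87 over these alternatives, the smallest being on the log2(TPM + 1) scale.

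Over all 136 members, the direction turned under at least 1 alternative for 11, none of which passed with all libraries; 6 of these turned when scaled by library totals only. Among the members named by the fixed rule, YAL044W-A was -0.0978 with library totals and -0.0322 and -0.0324 with limma at pseudocounts of 1 and 0.1, and YDR154C was -0.1095, -0.0428 and -0.0429 under the same settings. Leaving out 1 library gave -0.0108 to 0.1449 for YAL044W-A, -0.0917 to 0.1313 for YDR154C, -0.1071 to 0.0086 for YKL063C and -0.2816 to 0.2079 for YLR154W-E. The cause was not tested.

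The replicate numbers of the titles were checked as pairs, by the correlation of deviations from the group means. This was 0.43, 0.29 and -0.08 for numbers 1 to 3, and pairs of unlike numbers ran from -0.43 to 0.35. With 3 libraries a genotype these values cannot decide whether the numbers pair the libraries. With the replicate block 22 members were higher, 70 lower and 40 changed by at least 2-fold. The numbers are those of the titles; the library names number the knockout libraries 3 to 5, so that only number 3 is shared with the wild type by those names and they give no set of pairs. Knockout libraries 1 and 2 correlated best with the wild-type library of their own title number, and knockout library 3 with wild-type library 2 (0.35).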
